A study of Mus musculus with 6 samples.

Results

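The genes described here are 8 surface molecules through which macrophages stimulate or restrain T cells and receive signals back, out of 25206 probe sets measured: Cd80, Cd86, Cd40, Cd274, Pdcd1lg2, Icosl, Tnfsf9 and Cd200r1. They were taken by name from a list and not by a threshold on their values, although earlier results of these data were known when the list was made. All 8 had a probe set. Although the set is one of ligands by name, Cd40 and Cd200r1 are receptors. Both groups were C57BL/6J mice, either Tet2-deficient (Tet2-/-) or wild-type littermates, injected in the peritoneum with 1 mL of aged 4% Brewer's thioglycollate. Macrophages were collected 4 days later, plated in RPMI with antibiotics and 10% FBS without cytokine or other treatment, and lysed for total RNA 10 h after plating. How the Tet2 allele was made, or how old the mice were, is not stated in the labels. Each group held 3 arrays, numbered replicates 4, 5 and 6.

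A T cell that meets its antigen needs a second signal, given when its receptor CD28 binds CD80 or CD86 on the presenting cell. The related receptor CTLA-4 binds the same ligands and restrains the T cell, as does PD-1 when it binds PD-L1 (Cd274) or PD-L2 (Pdcd1lg2). CD40 works in the other direction, since CD40 ligand on activated T cells engages it to activate the macrophage. CD200R1 is an inhibitory receptor of myeloid cells, engaged by CD200 on neighbouring cells.

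The title and the genotype characteristic of the samples contradicted each other for 4 of the 6 samples, so groups were taken from the title and every direction refers to the libraries as labelled there. Tet2 itself ran from 3.74 to 4.35 in wild-type and from 3.67 to 4.05 in Tet2-/- on the log2 scale, which does not check the labels, since the deleted part and the probe positions are not known here. The array of Tet2-/- replicate 6 stood apart, with a median of 2.93 against 2.77 to 2.82 elsewhere and the lowest mean correlation with the other arrays (0.982 against 0.986 to 0.989). Its interquartile range was also the narrowest, at 2.99 against 3.16 to 3.33. The 6 measured macrophage markers, such as Csf1r and Adgre1, lay above the array median on every array. Their mean log2 level ran from 8.77 to 9.13 in wild-type and from 8.47 to 9.30 in Tet2-/-. Of 7 measured T-cell markers, 5 lay below the array median on every array. The labels call the samples biological replicates without naming animals, so the p-values cover only the spread among these 6 samples.

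The 8 genes lie on several mouse chromosomes, with Cd40 on chromosome 2, Icosl on 10 and Tnfsf9 on 17. Cd80, Cd86 and Cd200r1 are on chromosome 16, as is Cd200, the gene of the CD200R1 ligand. Cd274 and Pdcd1lg2 are close neighbours on chromosome 19, with 1 annotated gene between them. The RefSeq promoter table for GRCm38.p6 held 4 of the 8 genes. Because TET2 oxidises methylated cytosine, which in mammals lies mostly in CG dinucleotides, the 250 bases before each of these starts are shown, 5′ to 3′, with each CG in capitals. The 4 stretches differ widely in CG content.
Cd80 (GRCm38.p6, chr16:38458683-38458932, + strand): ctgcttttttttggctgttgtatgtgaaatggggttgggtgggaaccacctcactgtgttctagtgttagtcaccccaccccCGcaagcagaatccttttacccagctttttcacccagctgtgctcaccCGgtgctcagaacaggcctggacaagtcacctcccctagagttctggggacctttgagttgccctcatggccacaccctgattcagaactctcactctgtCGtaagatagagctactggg
Cd274 (GRCm38.p6, chr19:29367188-29367437, + strand): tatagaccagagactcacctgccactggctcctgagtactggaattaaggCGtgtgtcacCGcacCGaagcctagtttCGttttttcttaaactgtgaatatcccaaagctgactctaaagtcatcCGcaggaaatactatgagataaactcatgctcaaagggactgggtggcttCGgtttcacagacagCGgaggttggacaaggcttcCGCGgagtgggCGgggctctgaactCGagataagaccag
Pdcd1lg2 (GRCm38.p6, chr19:29410669-29410918, + strand): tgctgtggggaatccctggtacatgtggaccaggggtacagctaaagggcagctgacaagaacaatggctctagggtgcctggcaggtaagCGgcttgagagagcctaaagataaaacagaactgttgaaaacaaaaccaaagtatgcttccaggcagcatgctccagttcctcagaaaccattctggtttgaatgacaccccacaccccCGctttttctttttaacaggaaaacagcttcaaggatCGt
Icosl (GRCm38.p6, chr10:78069118-78069367, + strand): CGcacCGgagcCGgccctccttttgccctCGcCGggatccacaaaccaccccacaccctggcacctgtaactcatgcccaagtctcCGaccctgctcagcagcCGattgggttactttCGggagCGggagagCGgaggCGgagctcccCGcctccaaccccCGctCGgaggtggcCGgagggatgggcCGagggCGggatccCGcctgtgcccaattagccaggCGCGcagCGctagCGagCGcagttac
Icosl has 23 CG in this window, and 13.3% of the 32851 promoters in the table have as many or more. Cd274 has 11 (35.6% have as many or more), whereas Cd80 and Pdcd1lg2 have 3 each (71.0%). The median over all promoters is 6, with quartiles of 2 and 16. DNA methylation was not measured in these files, so the sequences describe the genes and bear on no difference below.

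None of the 8 genes passed the test between genotypes. By limma with Benjamini-Hochberg adjustment over all probe sets, 0 of 8 passed an adjusted p of 0.05, where 0% of all probe sets did, and each of the 8 had an adjusted p of 0.998. Without Tet2-/- replicate 6 there were again 0 of 8, and 0.0754% of all probe sets passed. The group means were higher in Tet2-/- for Pdcd1lg2, Icosl, Cd40 and Cd86 and lower for Cd200r1, Tnfsf9, Cd274 and Cd80. The median difference was 0.10 log2 units, against 0 over all probe sets. At an unadjusted p under 0.05 there was 1 of 8, Pdcd1lg2 (higher in Tet2-/-), where 1.71% of all probe sets were higher and 1.9% lower. The 3 arrays of one genotype lay wholly apart from those of the other for 0 of 8, where 7.41% of all probe sets did so. A difference of at least 0.25 log2 units in either direction was seen for 5 of 8 and for 14.4% of all probe sets. Values below are the deposited log2 levels. Levels of different genes are not compared, since probe sets differ in brightness.

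**Figure D1:**
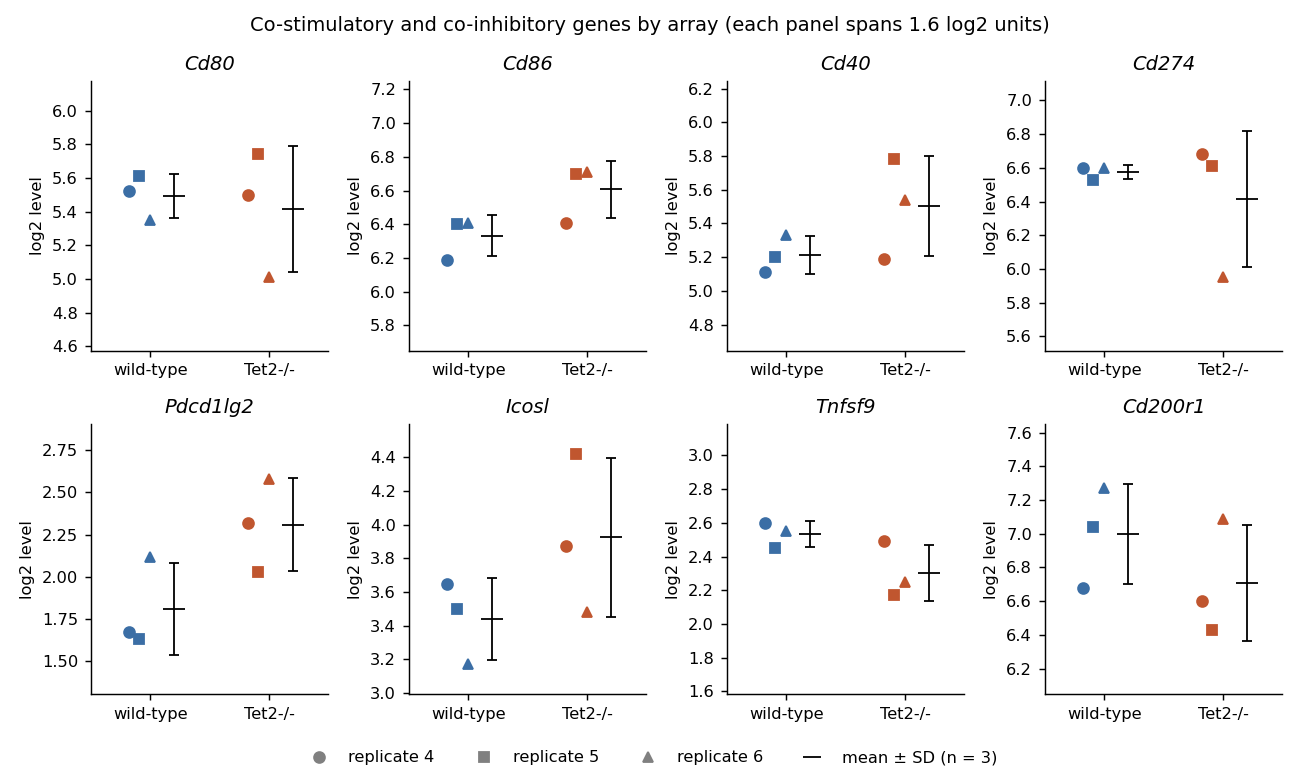
Log2 level (vertical axis, each panel spanning 1.6 units) of the 8 genes on each of the 6 arrays, by genotype; symbols mark replicates 4, 5 and 6, and bars give the mean ± SD (n = 3). The groups overlap or touch in every panel, and Tet2-/- replicate 6 is the lowest array for Cd80 and Cd274.

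The ligands of CD28 and CTLA-4 gave differences of opposite sign. Cd86, which is found on resting antigen-presenting cells and rises on activation, stood at 6.19, 6.40 and 6.41 in wild-type replicates 4, 5 and 6 and at 6.41, 6.70 and 6.71 in Tet2-/-. The highest wild-type array equalled the lowest Tet2-/- array, so the groups touched without crossing. The difference was 0.27 (standard error 0.144, 95% confidence interval -0.05 to 0.60, 1.21-fold, limma adjusted p = 0.998). Cd80, its activation-induced partner, stood at 5.52, 5.61 and 5.35 in wild-type and at 5.50, 5.74 and 5.01 in Tet2-/- cells. The Tet2-/- arrays thus held both the highest and the lowest value of the 6. The difference was -0.08 (interval -0.52 to 0.36) and turned to 0.13 without Tet2-/- replicate 6.

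The ligands of PD-1 also had differences of opposite sign over the 6 arrays. Cd274 was nearly constant in wild-type, at 6.60, 6.53 and 6.60, and stood at 6.68, 6.61 and 5.95 in Tet2-/-. Only Tet2-/- replicate 6 departed from the narrow wild-type range by more than 0.1, and the other Tet2-/- arrays lay slightly above it. The difference of -0.16 (interval -0.61 to 0.28) became 0.07 without that array. Pdcd1lg2, which interleukin-4 induces in macrophages, stood at 1.67, 1.63 and 2.12 in wild-type and at 2.32, 2.03 and 2.58 in Tet2-/- cells. Replicate 6 was the highest of its group in both genotypes, and Tet2-/- replicate 5 lay below wild-type replicate 6. The difference was 0.50 (standard error 0.191, interval 0.07 to 0.94, unadjusted p = 0.0274, limma adjusted p = 0.998). It was 0.37 without Tet2-/- replicate 6. This probe set lay below the array median on all 6 arrays, where RMA compresses differences.

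**Figure D2:**
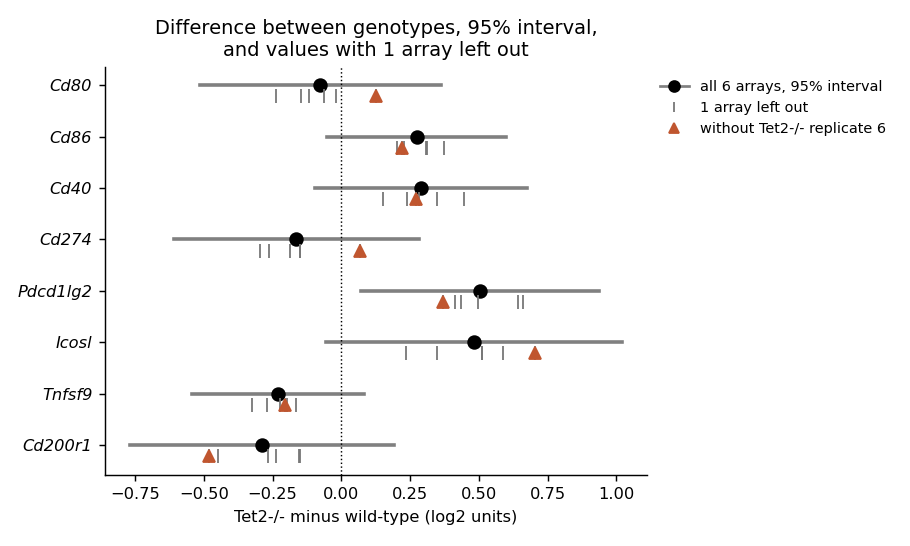
Tet2-/- minus wild-type difference in log2 units (horizontal axis) for each gene: black points and grey lines give the value over 6 arrays with its 95% confidence interval, ticks the values with 1 array left out, and triangles those without Tet2-/- replicate 6. The triangle lies on the other side of 0 for Cd80 and Cd274, and the interval leaves out 0 for Pdcd1lg2.

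Pairing the ligands of one receptor within each array removes shifts common to the whole array. It does not remove a change of scale, and the interquartile range was narrowest in Tet2-/- replicate 6. The level of a within-array difference has no meaning of its own, since it sets 1 probe set against another, and only its change between genotypes is read. Cd86 minus Cd80 was 0.67, 0.79 and 1.06 in wild-type and 0.91, 0.96 and 1.70 in Tet2-/-, a change of 0.35 (exact two-sided permutation test, p = 0.3, and 0.3 after adjustment over the 2 pairs). Cd274 minus Pdcd1lg2 was 4.93, 4.90 and 4.48 in wild-type and 4.36, 4.58 and 3.37 in Tet2-/-, a change of -0.67 (exact p = 0.2, adjusted 0.3). With 3 arrays against 3 this test cannot go below 0.1. In both pairs the groups overlapped and Tet2-/- replicate 6 was the extreme array. Without it the changes were 0.095 and -0.30.

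**Figure D3:**
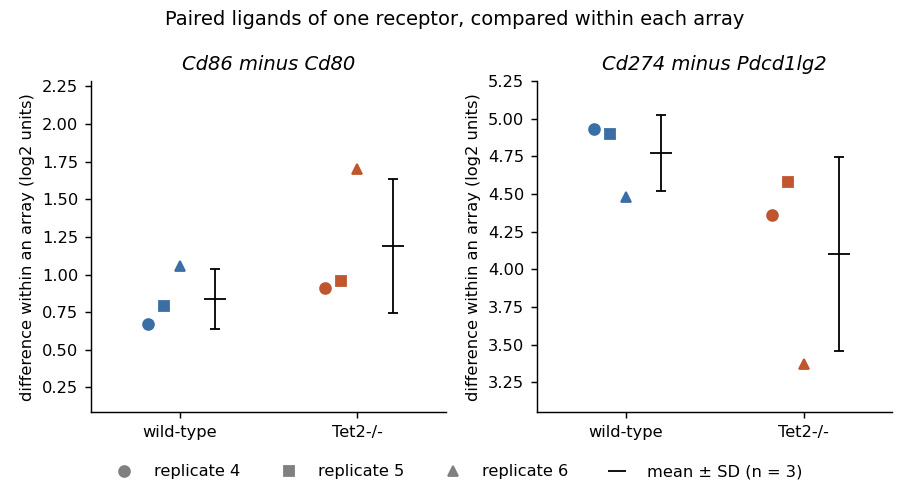
Difference in log2 level within each array (vertical axis) between Cd86 and Cd80 and between Cd274 and Pdcd1lg2, by genotype; symbols mark the replicates and bars the mean ± SD (n = 3). The value of Tet2-/- replicate 6 is the highest of 6 in the first pair, at 1.70, and the lowest in the second, at 3.37.

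Ligands that act through ICOS and 4-1BB differed in opposite directions. Icosl, the ligand of ICOS on activated T cells, which B cells also carry, stood at 3.65, 3.50 and 3.17 in wild-type and at 3.87, 4.42 and 3.48 in Tet2-/- cells. Replicates 4 and 5 of Tet2-/- lay above every wild-type array, whereas replicate 6 lay below wild-type replicates 4 and 5. The difference was 0.48 (standard error 0.238, interval -0.06 to 1.02, 1.40-fold, limma adjusted p = 0.998). It was 0.235 without Tet2-/- replicate 5. Tnfsf9, the 4-1BB ligand, stood at 2.60, 2.45 and 2.55 in wild-type and at 2.49, 2.17 and 2.25 in Tet2-/-. Tet2-/- replicate 4 lay within the wild-type range and the other Tet2-/- arrays below it. The difference was -0.23 (interval -0.54 to 0.08), and this probe set too lay below the array median throughout.

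Cd40 stood at 5.11, 5.20 and 5.33 in wild-type and at 5.19, 5.78 and 5.54 in Tet2-/- cells. Replicates 5 and 6 of Tet2-/- lay above all wild-type arrays and replicate 4 below wild-type replicate 5. The difference was 0.29 (standard error 0.171, interval -0.10 to 0.68). It came to 0.15 when Tet2-/- replicate 5 was left out and to 0.45 when replicate 4 of that genotype was. Of 10 measured genes of CD40 signalling, 6 were higher and 4 lower in Tet2-/-, 0 passed, and the median difference was 0.05, or 0.0092 without Tet2-/- replicate 5. Nfkb2, the NF-kB subunit precursor of the pathway that CD40 drives, differed by 0.41, and Map3k14, the kinase that starts its processing, by 0.25. Nfkb2 was at 0.27 without Tet2-/- replicate 5 and Map3k14 at 0.065 without wild-type replicate 5.

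Cd200r1 and its ligand both had lower means in Tet2-/-. Cd200r1 stood at 6.68, 7.04 and 7.27 in wild-type and at 6.60, 6.43 and 7.09 in Tet2-/- cells, a difference of -0.29 (standard error 0.212, interval -0.77 to 0.19). The groups overlapped broadly, replicate 6 being the highest of each. Leaving out Tet2-/- replicate 5 put it at -0.15, and leaving out replicate 6 of that genotype at -0.48. Cd200 stood at 7.65, 8.02 and 8.21 in wild-type and at 7.21, 6.47 and 7.53 in Tet2-/-. Here every Tet2-/- array lay below every wild-type array, as for 4.07% of all probe sets. The difference was -0.89 (standard error 0.266, interval -1.49 to -0.29, 0.540-fold, unadjusted p = 0.00864, limma adjusted p = 0.998). It was -0.59 without Tet2-/- replicate 5. Within each genotype, Cd200 and Cd200r1 put the 3 arrays in the same order.

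The rest of the CD200 receptor family and its adaptors gave 2 higher and 4 lower of 6 measured genes, with 0 passing and a median of -0.11, which stayed below 0 with single arrays left out (-0.16 to -0.057). Cd200r4, a related receptor without the inhibitory tail, stood at 7.33, 7.42 and 7.26 in wild-type and at 6.92, 6.50 and 7.28 in Tet2-/-. Replicate 6 of Tet2-/- lay in the wild-type range and the other arrays below it, a difference of -0.44 (interval -0.88 to 0.0044). It was -0.24 without Tet2-/- replicate 5. Dok2, the adaptor that carries the CD200R1 signal, differed by -0.30, and by -0.16 without wild-type replicate 6. Whether probes of Cd200r1 and Cd200r4 also bind each other's transcripts was not tested.

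**Figure D4:**
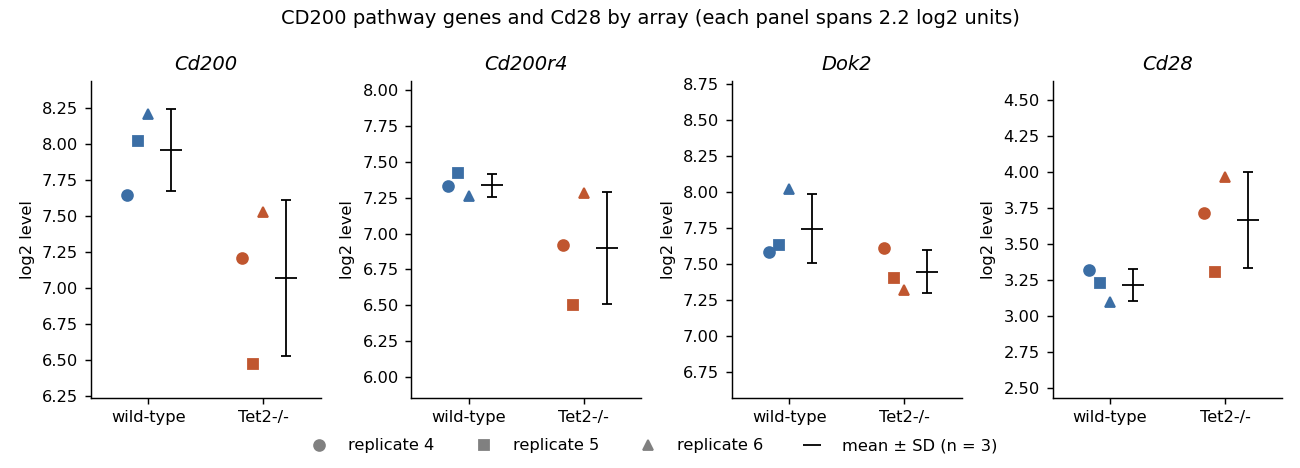
Log2 level (vertical axis, each panel spanning 2.2 units) of Cd200, Cd200r4, Dok2 and Cd28 on each array, by genotype; symbols mark the replicates and bars the mean ± SD (n = 3). The groups lie apart for Cd200 alone among these 4 genes, with Tet2-/- arrays from 6.47 to 7.53 and wild-type arrays from 7.65 to 8.21.

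Partners carried mainly by T cells were mostly near the low end of the scale. Of the 7 partners of the 8 genes, Cd200 included, 3 were higher and 4 lower in Tet2-/-, 0 passed, and 4 lay below the array median on every array, namely Ctla4, Cd40lg, Pdcd1 and Icos. The median difference of the 7 was -0.083, but 0.09 without Tet2-/- replicate 5 and -0.29 without Tet2-/- replicate 6. Cd28 stood at 3.32, 3.23 and 3.10 in wild-type and at 3.72, 3.31 and 3.97 in Tet2-/-. The groups met between Tet2-/- replicate 5 and wild-type replicate 4, and the difference of 0.45 (unadjusted p = 0.0345, limma adjusted p = 0.998) was 0.30 without Tet2-/- replicate 6. The mean of the T-cell markers, Cd28 among them, was also highest in Tet2-/- replicate 6, 0.24 above the 6-array mean; its part in the Cd28 difference was not tested. Tnfrsf9, the receptor of the 4-1BB ligand, was lower in all Tet2-/- arrays (2.76 to 3.09) than in wild-type (3.15 to 3.24), a difference of -0.29, as was seen in that direction for 4.07% of probe sets.

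Other ligands of the same families gave no call either. Among 7 B7 and butyrophilin relatives, 3 were higher and 4 lower. Their median of -0.10 was 0.005 without wild-type replicate 6 and 0.038 without Tet2-/- replicate 6. Cd276, another B7 protein, differed by -0.50, but by -0.13 without Tet2-/- replicate 6, whose level of 3.53 was far below the 4.38 to 4.90 of the other 5 arrays. Vtcn1, an inhibitory B7 protein, differed by 0.27 and by 0.092 without the same array. Of 10 measured TNF family ligands, 6 were higher and 4 lower (median 0.035, but -0.039 leaving out Tet2-/- replicate 4 and -0.014 leaving out replicate 6), and 8 lay below the array median throughout. Tnfsf8, the CD30 ligand, was at 1.76 to 1.96 in wild-type and 2.08 to 2.31 in Tet2-/-, a difference of 0.29 between groups that did not overlap, as for 3.33% of probe sets. Tnfsf4, the OX40 ligand, differed by 0.18, and by 0.088 without wild-type replicate 6.

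Of 11 further checkpoint molecules of myeloid cells, 7 were higher and 4 lower. Their median of 0.11 was -0.067 when Tet2-/- replicate 4 was left out and 0.022 without wild-type replicate 5 or 6. Pvr, a ligand shared by the activating receptor DNAM-1 and the inhibitory TIGIT, differed by -0.28, and by -0.16 without Tet2-/- replicate 6. Btla, an inhibitory receptor abundant on B cells, differed by 0.28, and by 0.135 without Tet2-/- replicate 5. Tnfrsf14, the receptor that BTLA binds, was at 5.09 to 5.17 in wild-type and 5.26 to 5.37 in Tet2-/-. This was a small difference of 0.18 (limma unadjusted p = 0.181) with no overlap, as for 3.33% of probe sets. Interferon-gamma and interleukin-4 induce several of the 8 genes. Of 7 measured genes of their receptor pathways, 6 were higher and 1 lower in Tet2-/-. Their median of 0.10 was -0.07 when Tet2-/- replicate 5 was left out and 0.35 when replicate 6 of that genotype was. Irf1, an interferon-induced transcription factor, differed by 0.33 and Il4ra, the interleukin-4 receptor chain, by 0.27, the second by 0.11 without Tet2-/- replicate 5. Over the 58 measured of 62 genes on these 7 lists, 33 were higher and 25 lower, 0 passed, 1 was higher and 1 lower at an unadjusted p under 0.05, about the shares of all probe sets (1.71% and 1.9%), and the median difference was 0.02.

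The spread between arrays was larger in Tet2-/- than in wild-type for 8 of the 8 genes, a count made after their values were seen. Over all probe sets the SD over 3 arrays was larger in Tet2-/- for 63.6%. The median SD of the 8 genes was 0.128 log2 units in wild-type and 0.320 in Tet2-/-, against 0.153 and 0.20 over all probe sets. For Cd274 the SD was 0.0404 in wild-type and 0.403 in Tet2-/-, and for Cd80 0.132 and 0.372. Pdcd1lg2 had nearly the same SD in both, 0.272 and 0.275. Without Tet2-/- replicate 6 the SD was larger in Tet2-/- for 6 of the 8 genes and for 39.1% of all probe sets, with 2 arrays against 3.

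The 8 genes did not follow 1 pattern over the arrays. Correlations were computed for all 28 pairs over the 6 arrays, with exact permutation p-values adjusted over the 28. Icosl and Cd200r1 ran in exactly opposite order (Pearson r = -0.92, exact p = 0.00139, adjusted 0.0389; Spearman rho = -1, exact p = 0.00278, adjusted 0.0778). Both exact p-values are the smallest that 6 arrays allow. By Spearman, 1 pair alone among the 28 could not go below 0.0778 after adjustment. The permutations ran over all 6 arrays, without regard to genotype. Without the 2 arrays farthest from the median of Icosl, wild-type replicate 6 and Tet2-/- replicate 5, r was -0.92. Within genotypes, after subtracting each group's mean, it was -0.91. That value was not particular to this pair. Within genotypes r was -0.93 for Pdcd1lg2 and Icosl (-0.02 over the 6 arrays) and 0.92 for Cd80 and Icosl (0.61 over the 6 arrays). Cd86 and Cd40 had a similar order (r = 0.91, exact p = 0.0139, adjusted 0.117; rho = 0.84, exact p = 0.0444, adjusted 0.389). Tnfsf9 ran against both, with r = -0.95 for Cd86 (exact p = 0.0167, adjusted 0.117; rho = -0.75, exact p = 0.0944, adjusted 0.389) and r = -0.92 for Cd40 (exact p = 0.0153, adjusted 0.117; rho = -0.83, exact p = 0.0583, adjusted 0.389). Without Tet2-/- replicates 5 and 6, the arrays farthest from the median, these 3 values of r were 0.73, -0.76 and -0.17. Without replicate 6 of that genotype alone they were 0.93, -0.94 and -0.92. The relation of Cd40 and Tnfsf9 thus weakened with both arrays left out but not with replicate 6 alone. Cd80 and Cd274 had an r of 0.83 (exact p = 0.0972, adjusted 0.531; rho = 0.38, exact p = 0.478, adjusted 1), which was -0.39 without Tet2-/- replicates 5 and 6 and -0.20 without the latter array alone.

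Marker genes of other cells of the peritoneal cavity were read beside these values. The mean of 7 measured B-cell markers, relative to the 6 arrays, was -0.45, -0.40 and -0.26 in wild-type and 0.40, 1.13 and -0.42 in Tet2-/-, and Tet2-/- replicates 5 and 4, its highest arrays, were also the highest for Icosl. Within wild-type the order was opposite: Icosl was at 3.65, 3.50 and 3.17, lowest where the B-cell mean was highest. The mean log2 level of the B-cell markers ran from 3.31 to 3.50 in wild-type and from 3.34 to 4.88 in Tet2-/-, and 6 of 7 were higher in Tet2-/-. None of the 7 passed. The defining gene Ms4a1 was at 1.71 to 2.26 in wild-type and 2.18 to 4.21 in Tet2-/-. Cd22, an inhibitory receptor and the member with the smallest p, ran the other way, at 6.07 to 6.21 in wild-type and 5.23 to 5.50 in Tet2-/- (-0.80, limma adjusted p = 0.483). Resident large peritoneal macrophage genes stood at 0.66 and 0.75 in Tet2-/- replicates 4 and 5, at -0.41 in replicate 6 and between -0.46 and -0.13 in wild-type. Their mean log2 level ran from 5.32 to 5.64 in wild-type and from 5.37 to 6.53 in Tet2-/-, and 6 of 7 were higher, with 0 passing. In bulk RNA, a change in the number of cells of a type and in the RNA per cell cannot be told apart. The part of either cell type in Icosl, Cd40 or Cd200r1 was not tested.

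The mean of the general macrophage markers was lowest in Tet2-/- replicate 6, at -0.47, as were Cd80 and Cd274. It was highest in Tet2-/- replicate 5, at 0.37, as were Cd80, Cd40 and Icosl. Of the 6 markers, 3 were higher and 3 lower in Tet2-/-. Cd68, Mertk and Fcgr1 were each highest on another array, and Mertk was lowest in wild-type replicate 6. Tet2-/- replicate 6 was the lowest of 6 for 2 of the 8 genes and for 20.5% of all probe sets, and Tet2-/- replicate 5 was the highest for 3 of the 8 and for 14% of all probe sets. The mean of 7 dendritic cell markers stayed between -0.14 and 0.11 on all arrays (mean log2 level 2.89 to 2.96 in wild-type and 2.71 to 2.87 in Tet2-/-). Of these 7, 5 were higher and 2 lower, and Flt3, Zbtb46, Xcr1 and Clec9a lay below the array median throughout. The list mean hides Itgax, the integrin CD11c that macrophages also carry, which was at 6.80 to 7.11 in wild-type and 5.22 to 5.68 in Tet2-/- (-1.49, limma adjusted p = 0.197). The mean of the neutrophil markers stood at 0.18 in Tet2-/- replicate 6 and from -0.12 to 0.01 elsewhere, with 4 of 6 higher in Tet2-/-. This mean too hides opposite values. On that array S100a8, Ly6g, Retnlg and Cxcr2 were the highest of the 6 arrays, whereas Mmp8 and S100a9 were the lowest. The part of these values in the differences of Cd80 and Cd274 was not tested.

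**Figure D5:**
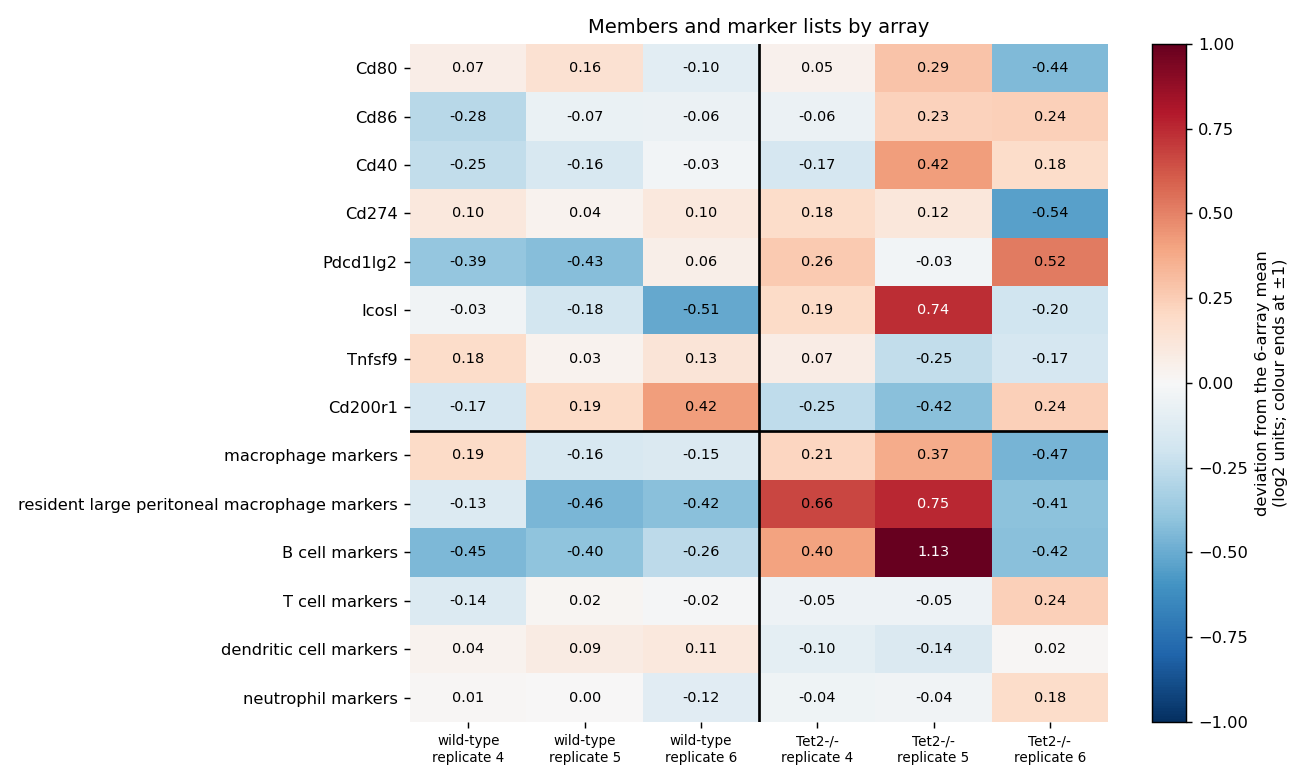
Deviation from the 6-array mean in log2 units (colour and printed value) of the 8 genes and of the mean of 6 marker lists, one row each, on the 6 arrays (columns). Icosl is highest in Tet2-/- replicate 5, at 0.74. The B-cell (1.13), resident large peritoneal macrophage (0.75) and macrophage (0.37) lists are all highest on that array too. Among the wild-type arrays, Icosl is lowest on replicate 6, where the B-cell list is highest. Cd80 and Cd274 are lowest where the macrophage list is lowest.

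Among 6770 brighter and variable probe sets, the named genes closest in pattern to each of the 8 over the 6 arrays reached a Pearson r of 0.967 to 0.996. With 6 points and so many candidates, values this high are a description of these arrays only. Cd40 ran closest to Fas, a death receptor of the same TNF receptor family, and Zfp607a. Icosl ran closest to Runx3, a transcription factor of lymphoid and myeloid cells, and Peli1, a ubiquitin ligase of Toll-like receptor signalling. The closest genes were Zfp518a and Tmem67 for Cd80, Cdca3 and Pglyrp1 for Cd86, and Utp25 and Rhbdd1 for Cd274. They were Spint2 and Cox6a2 for Pdcd1lg2, Fblim1 and Plpp3 for Tnfsf9, and Hint3 and Pet100 for Cd200r1.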

How the data were processed

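Total RNA of 6 macrophage samples was measured on Affymetrix whole-transcript arrays. Per the submitters' processing notes, the authors made the deposited log2 values by RMA (affy 1.36.1), which subtracts background, normalizes by quantiles and combines the probes of a set. That the scale is log2 follows from the method and the range of values. Whether the arrays were normalized together is not given in the sources used here. The table holds 25206 probe sets. The platform annotation named 23185 of them, all of which matched RefSeq genes of GRCm38.p6 by identifier, and each of the 8 genes had 1 probe set. Probe positions and background were not used here, so RMA's compression of dim signals could not be measured.

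All probe sets were fitted together in limma 3.58.1 (R 4.3.3; lmFit, then eBayes) with genotype as the only term and two-sided p-values. Benjamini-Hochberg adjustment ran over all probe sets, and the threshold was 0.05. The procedure was tested on simulated data. Differences between paired ligands within an array were compared with exact permutation tests. The members, the gene lists and the tests were chosen with earlier results of these data known. Besides the 8 genes, the text names from each of 7 pathway lists the up to 2 genes with the smallest unadjusted p. It also names the 2 genes most correlated with each member, among probe sets brighter than the median with an SD of at least 0.2. Other names were chosen after their values were seen. The alternatives were a replicate-number block, the genotype characteristic for grouping, a variance trend, array weights, other scalings, the brighter probe sets and leaving out each array. Arrays with the same number did not deviate together in every pair (correlations of 0.15, -0.22 and 0.11 for replicates 4, 5 and 6), so the fit without the block is given. Precision is limited by there being 3 arrays per group.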

Additional observations from a re-analysis of the deposited data

How the results depend on the processing

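By limma, 0 of the 8 genes and 0 of the 58 pathway genes passed under every alternative run, although only 6 and 37 of them were tested among the brighter probe sets, while Pdcd1lg2, Cd200 and Cd28 were the only ones of these with an unadjusted p under 0.05 in the test on all 6 arrays. Over all probe sets, array weights gave 2 calls instead of 0, and leaving out single arrays gave 0 to 19. The 19 came when Tet2-/- replicate 6 was left out, and leaving out wild-type replicate 4 gave 1. The direction of Cd80 and Cd274 hung on Tet2-/- replicate 6: leaving out single arrays gave -0.24 to 0.13 and -0.30 to 0.07, and array weights gave 0.068 and 0.0058. With the replicate number as a block, 0 probe sets passed. The differences themselves could not change there (Pdcd1lg2 at 0.50), since each genotype holds each replicate number, so their equality is no check. Grouped by the genotype characteristic, 14 of the 22 genes named by list changed sign: Cd80 to 0.22, Cd274 to 0.17, Pdcd1lg2 to -0.26, Cd200r1 to 0.12, Cd200 to 0.10, Cd28 to -0.46, Cd276 to 0.22, Vtcn1 to -0.26, Tnfsf4 to -0.097, Pvr to 0.033, Dok2 to 0.18, Nfkb2 to -0.0033, Map3k14 to -0.31 and Il4ra to -0.027. The share of all probe sets that changed sign was not counted. Because this grouping moves 4 of the 6 samples to the other group, many sign changes follow from the regrouping itself. The count is thus no measure of how stable these genes are. The within-array changes became -0.16 for Cd86 minus Cd80 and 0.43 for Cd274 minus Pdcd1lg2, and ran from 0.095 to 0.49 and from -0.905 to -0.30 with single arrays left out. The cause was not tested. Most list medians lay close to 0 and several turned sign with 1 array left out, as given beside them. Median centring moved the difference of every probe set by the same -0.025. Each of the 22 differences was larger than that in size, so no direction could change.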
